A study of Mus musculus with 43 samples.

Results

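A set of 9 genes of the interferon system was followed across brain endothelial cells (EC) of 7 mouse strains: the receptor chains Ifnar1, Ifnar2 and Ifngr1, the transcription factor Irf7, and the response genes Ifit1, Ifit3, Bst2, Ifitm3 and Ifi27. They were taken by symbol from the deposited table, and 9 of its 54532 genes matched. All 9 were among the 29120 genes that reached 0.5 CPM, counts scaled to the library size, in at least 1 library. EC were sorted by flow cytometry as CD31-positive, CD45- and CD11b-negative cells from cortex or hippocampus of mice aged 2 months, and each of the 43 libraries is 1 such sort. The long-inbred strains were 129S1/SvImJ (9 libraries), A/J (5), C57BL/6J (6), DBA/2J (5) and NOD/ShiLtJ (6), and the recently wild-derived strains were CAST/EiJ (6) and WSB/EiJ (6). No mouse carried a labelled transgene or received a labelled treatment. Female mice gave 16 libraries and male mice 27, cortex gave 21 and hippocampus 22, and each sample title ends in a tag, high (29) or low (14), whose meaning is not given in the sources used here. The sexes were uneven over strains: 129S1/SvImJ gave 6 female and 3 male libraries, and each other strain 1 or 2 female and 4 male. Strain and sex are thus partly mixed.

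Type I interferons bind a receptor built of IFNAR1 and IFNAR2, and the type II interferon binds one that contains IFNGR1. The kinases JAK1, JAK2 and TYK2 then activate STAT proteins, which bind interferon-stimulated response elements (ISRE) or related sites in the promoters of response genes. IRF7 is both induced by interferon and an inducer of interferon genes. IFIT1 and IFIT3 are cytoplasmic proteins that block foreign RNA, BST2 (tetherin) holds budding virus at the cell surface, IFITM3 limits viral entry from endosomes, and IFI27 is a small membrane protein long used as a marker of interferon exposure. Many vascular cells keep some of these genes on at a low level in the absence of infection.

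Promoters are shown for the genes whose levels moved together among strains (Irf7, Ifit1 and Ifit3) and for the response genes Bst2 and Ifitm3 as comparison. They are RefSeq sequences on build GRCm38.p6, read 5′ to 3′ along the gene's strand, and each line except that of Ifitm3 ends at the base before the annotated start. Capitals mark ISRE-like matches, that is, the half-site GAAA present 2 times in the same direction with any 2 bases (NN) between. Both strands were searched, so a match on the other strand reads TTTC, NN, TTTC. The Irf7 stretch lies at chr7:141266425-141266589, that of Ifit1 at chr19:34640724-34640888, that of Ifit3 at chr19:34583364-34583528, and that of Bst2 at chr8:71537473-71537637. The Irf7 and Bst2 stretches are on the minus strand. For Ifitm3 the 27 bases from position 3 to 29 after its start are given, at chr7:141010716-141010742 on the minus strand.
Irf7: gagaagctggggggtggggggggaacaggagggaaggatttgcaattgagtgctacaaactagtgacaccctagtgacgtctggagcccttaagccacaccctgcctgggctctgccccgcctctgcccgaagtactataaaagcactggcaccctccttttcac
Ifit1: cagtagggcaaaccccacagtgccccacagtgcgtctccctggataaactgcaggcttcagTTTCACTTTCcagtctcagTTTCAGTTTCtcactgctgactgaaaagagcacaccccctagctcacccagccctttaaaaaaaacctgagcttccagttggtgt
Ifit3: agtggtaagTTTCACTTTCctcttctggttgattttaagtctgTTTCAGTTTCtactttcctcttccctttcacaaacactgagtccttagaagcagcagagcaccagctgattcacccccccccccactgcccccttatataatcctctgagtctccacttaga
Bst2: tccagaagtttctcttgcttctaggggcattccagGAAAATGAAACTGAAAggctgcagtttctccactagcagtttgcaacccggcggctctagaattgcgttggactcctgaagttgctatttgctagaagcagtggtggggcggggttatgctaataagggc
Ifitm3: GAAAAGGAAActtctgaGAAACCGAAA
Counted from the start, the matches began at -104 and -85 in Ifit1, at -156 and -122 in Ifit3, at -130 and -124 in Bst2 (where they overlap) and at 3 and 20 in Ifitm3. None was found in the 300 bases of Irf7, Ifnar1, Ifnar2 or Ifngr1, and Ifi27 was not searched. Of all 32851 RefSeq mouse promoters of this length, 3.44% held a match. Among other response genes it was found in 32 of 75, and among other receptor chains and signalling genes in 2 of 13.

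All libraries were counted on the same gene models, and positions are given on mm10 from GENCODE M21. Some of the 9 genes have copies or overlaps that limit their values. Ifit3 (ENSMUSG00000074896, chr19:34583531-34588731, plus strand) has a neighbour, Ifit3b, that is 97.8% identical over 97.4% of its longest transcript, so reads of the pair could be shared or lost and Ifit3 values are uncertain. Irf7 (ENSMUSG00000025498, chr7:141262706-141266481, minus strand) overlaps Phrf1 on the other strand, and Ifnar2 (ENSMUSG00000022971, chr16:91372783-91405589, plus strand) overlaps Gm21970 on its own strand. The strand setting of the counting is not given in the sources used here. Ifitm3 (ENSMUSG00000025492, chr7:141009586-141010770, minus strand) has partial copies, such as Ifitm2, which is 83.2% identical over 53.7% of the transcript. Ifit1 (ENSMUSG00000034459, chr19:34640871-34650009, plus strand) resembles Ifit1bl1 and Ifit1bl2 over at most 30.2% of its transcript. Ifnar1 (ENSMUSG00000022967) lies at chr16:91485238-91507441, Ifngr1 (ENSMUSG00000020009) at chr10:19591949-19610229 and Ifi27 (ENSMUSG00000064215) at chr12:103434211-103440239, all on the plus strand, and Bst2 (ENSMUSG00000046718) at chr8:71534255-71537456 on the minus strand.

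Libraries held 1626534 to 49372356 counts (median 5790701), so values in the shallow libraries, among them all 6 of WSB/EiJ (1626534 to 5331064), are less precise. The male hippocampus library titled low of WSB/EiJ stood apart in Lars2, at 15264 CPM against 9.78 to 396 CPM in the other 42. All 20 endothelial markers passed the filter and summed to 14945 to 30388 CPM per library. Markers of pericytes (10 genes, 2160 to 9759 CPM) and astrocytes (10 genes, 1119 to 19605 CPM) were also present. The 10 microglial markers summed to 0.555 to 163 CPM and 5 markers of perivascular macrophages to 0 to 26.7 CPM, while Cd3g, Ncr1 and Ly6g were at 0 in all 43 libraries. In bulk RNA, fewer cells of a type and less RNA per cell cannot be told apart. Replicates are libraries of 1 strain, and the labels do not give the mouse, so p-values measure the spread between libraries. The titles of 38 libraries form 19 sets of 1 cortex and 1 hippocampus library that differ in the region alone. As both regions were dissected from a brain, libraries of a set may come from the same mice, and p-values over both regions may then be too small. Each test between strains, sexes or tags was therefore repeated on counts summed per set, which left 24 units (fewer for the tag). Libraries whose titles differ in the tag alone stayed separate units. Whether these come from the same mice is not labelled either, so p-values on summed counts may still be too small. The test by tag took no account of such pairs.

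Levels were first set side by side per length of exon, as CPM per kb, with the median over 43 libraries. Ifitm3 stood highest at 103, followed by Ifnar1 at 48.0 and Ifnar2 at 34.0. The other 6 genes lay close together, from Ifngr1 at 14.0, Ifit3 at 13.3, Ifi27 at 12.4 and Ifit1 at 10.6 to Irf7 at 9.13 and Bst2 at 8.93. The type I receptor chains thus stood above all members but Ifitm3 in this measure. Bst2 was at 0 in 5 libraries and Ifi27 in 2, spread over 4 and 2 strains. In 129S1/SvImJ, both were at 0 in the female cortex library titled low, which held 27702669 counts, where 3 counts would be 0.104 CPM.

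**Figure D1:**
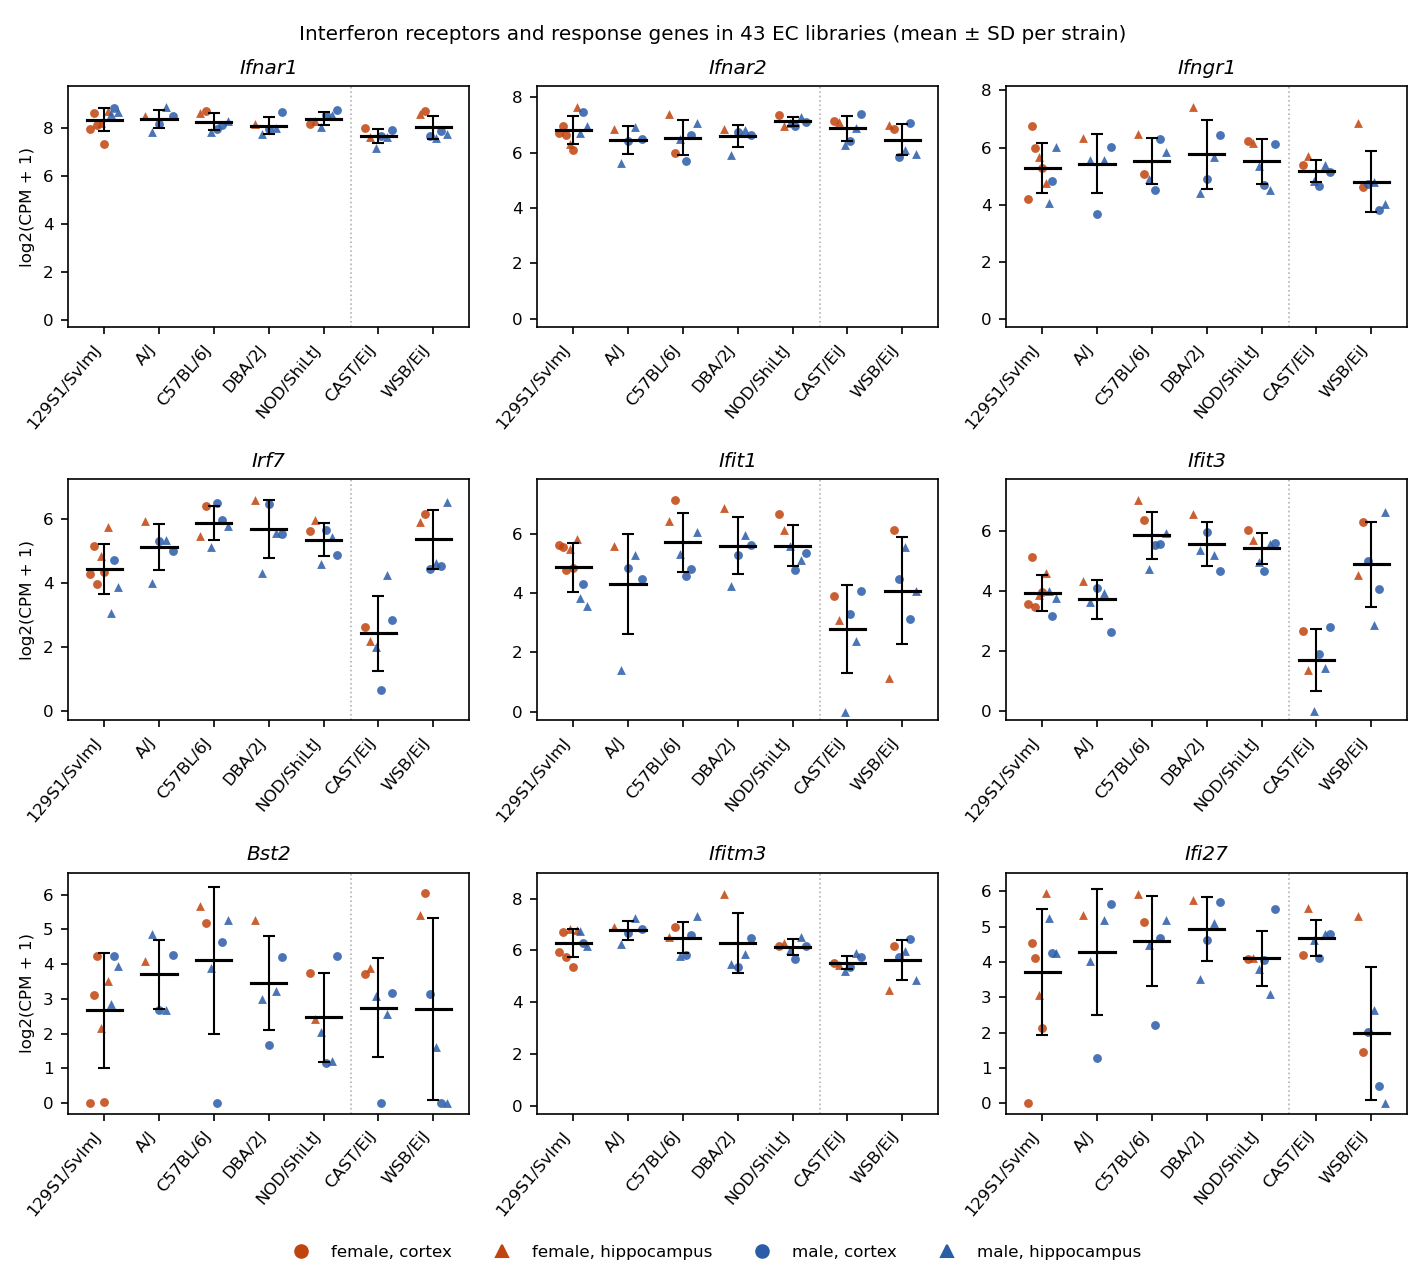
Expression of the 9 genes as log2(CPM + 1) per library (points; orange female, blue male; circles cortex, triangles hippocampus), with mean ± SD per strain in black; the dotted line separates long-inbred (left) from wild-derived strains (right). CAST/EiJ has the lowest mean for Ifnar1, Irf7, Ifit1, Ifit3 and Ifitm3, and the means of the receptor chains lie close together.

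The first question was whether the strains differ in these genes. Over the 7 strains, 3 of the 9 genes passed the test, Ifit3 (adjusted p = 4.43e-07), Irf7 (adjusted p = 0.000158) and Ifit1 (adjusted p = 0.0289), which are all response genes. The test was edgeR's quasi-likelihood F test with Benjamini-Hochberg adjustment over 29120 genes, as for all fold changes given here. Across all genes tested, 2.68% passed, and 6.68% of the 8679 that average at least 10 CPM, as all 9 members do. No receptor chain passed, with adjusted p = 0.423 for Ifnar1, 0.818 for Ifnar2 and 0.820 for Ifngr1, and neither did Ifitm3 (0.136), Ifi27 (0.812) or Bst2 (0.818). At an unadjusted p under 0.05, 5 of the 9 genes were found, beside 3107 of all 29120. DESeq2 passed 5, adding Ifitm3 and Ifnar1.

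Each strain was then set against the mean of the other 6, so these 7 contrasts share their libraries. CAST/EiJ was lower in Ifit3 (log2 fold change -3.46 ± 0.54 SE, adjusted p = 3.72e-06), Irf7 (-2.81 ± 0.47, adjusted p = 2.12e-05) and Ifit1 (-2.26 ± 0.54, adjusted p = 0.00987). Among all genes, 1.35% passed in this contrast, and 0.378% passed as lower. Of those averaging at least 10 CPM, 2.59% passed, and 1.18% as lower. In C57BL/6J, Ifit3 was higher (log2 fold change 1.72 ± 0.35 SE, adjusted p = 0.00519), but not in male libraries alone (1.42 ± 0.44 SE, adjusted p = 0.195). There 0.529% of all genes passed and 0.337% as higher, and 0.749% of those averaging at least 10 CPM passed. None of the 9 genes passed in 129S1/SvImJ (1.46% of all genes), A/J (0.254%), DBA/2J (0.192%), NOD/ShiLtJ (0.185%) or WSB/EiJ (2.41%). At an unadjusted p under 0.05, these 5 strains had 0, 2, 3, 1 and 3 of the 9 genes in the same order, beside 5737, 2952, 2230, 2773 and 3858 of all 29120. The median fold change over all genes was -0.12 in CAST/EiJ and -0.34 in C57BL/6J, and near 0 in both (0.02 and -0.00) over the genes that average at least 10 CPM.

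**Figure D2:**
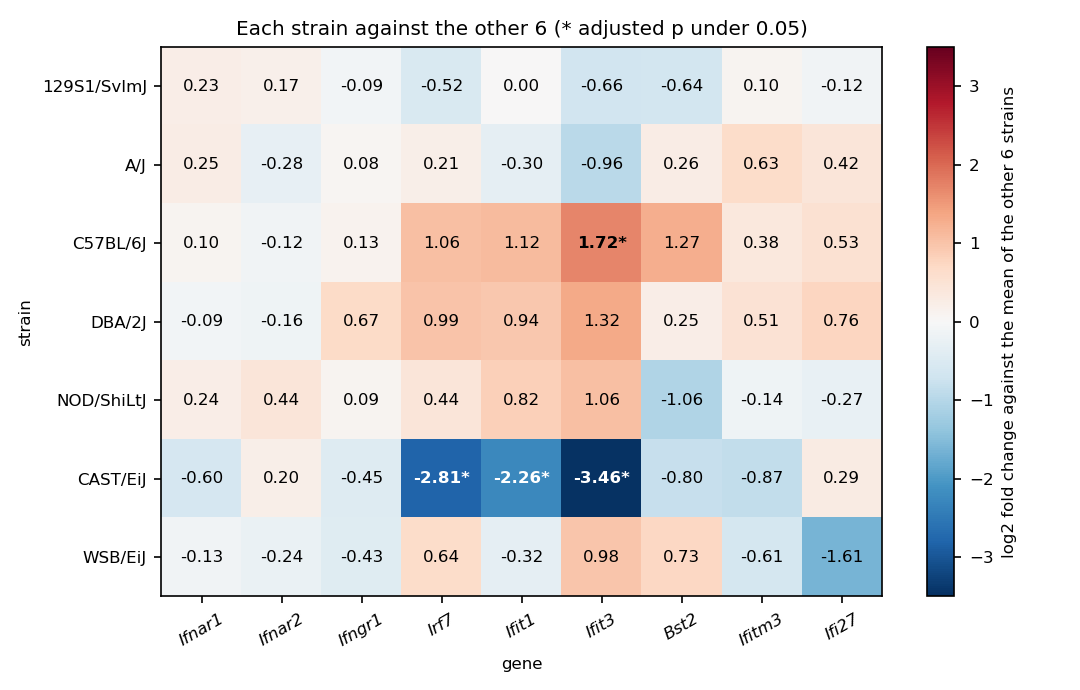
Fitted log2 fold change of each gene (columns) in each strain (rows) against the mean of the other 6 strains; an asterisk and bold type mark an adjusted p under 0.05. The 4 marked cells are Irf7, Ifit1 and Ifit3 in CAST/EiJ, all negative, and Ifit3 in C57BL/6J, which is positive.

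Irf7, the transcription factor, ranged from 0.556 through a median of 4.40 to 18.2 CPM in the 6 CAST/EiJ libraries. In the other strains it ran from 7.44 to 95.7 CPM, and 33 of those 37 libraries were above the highest of CAST/EiJ. The lowest CAST/EiJ value, from male cortex titled low, rests on 2 counts, and the highest, from male hippocampus titled high, on 126.
The 5 A/J libraries were at 15.0, 31.1, 38.7, 39.8 and 61.2 CPM, and the 5 DBA/2J libraries at 19.1, 45.6, 46.6, 88.2 and 95.7 CPM. Lowest, median and highest were 34.5, 58.1 and 91.0 CPM in C57BL/6J, 23.0, 45.7 and 62.1 CPM in NOD/ShiLtJ, and 7.44, 19.5 and 53.2 CPM in 129S1/SvImJ. WSB/EiJ ran from 20.7 through 41.6 to 91.4 CPM, so both wild-derived strains did not share the low level. In the order of mean log2(CPM + 1), from C57BL/6J at 5.88 ± 0.53 (SD, n = 6) down to 129S1/SvImJ at 4.45 ± 0.79 (SD, n = 9), no neighbours differed by more than the larger of their SDs. The last step, to CAST/EiJ at 2.43 ± 1.19 (SD, n = 6), was 2.03 and exceeded it. Phrf1, which overlaps Irf7, was at 111 ± 22.6 CPM in CAST/EiJ (SD, n = 6) and 118 ± 54.0 CPM elsewhere (SD, n = 37).

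Ifit3 gave the widest separation among the 9 genes. In CAST/EiJ it was at 0 to 6.01 CPM with a median of 2.26, and 36 of 37 libraries of other strains lay above that highest value. The exception was the male cortex library titled high of A/J, at 5.27 CPM.
A/J was at 5.27, 11.4, 14.3, 16.1 and 19.2 CPM and DBA/2J at 24.2, 35.9, 40.6, 61.6 and 93.7 CPM, so these long-inbred strains did not overlap. C57BL/6J ran from 25.5 through 53.5 to 129 CPM, and NOD/ShiLtJ from 24.6 through 46.8 to 64.2 CPM. 129S1/SvImJ was low and narrow, from 7.99 through 13.8 to 34.3 CPM, while WSB/EiJ was wide, from 6.29 through 26.5 to 98.7 CPM. Strains with high means (C57BL/6J, DBA/2J, NOD/ShiLtJ and WSB/EiJ) thus stood above 129S1/SvImJ and A/J, with CAST/EiJ last, but only the last step, of 2.02 in mean log2(CPM + 1), exceeded the SDs of its neighbours. The copy Ifit3b averaged 3.52 ± 4.22 CPM in CAST/EiJ (SD, n = 6) and 14.5 ± 13.6 CPM elsewhere (SD, n = 37), so it was also low there. Added together, Ifit3 and Ifit3b gave 6.44 ± 5.94 CPM in CAST/EiJ and 51.5 ± 36.7 CPM elsewhere, with the same n.

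Ifit1 followed with more overlap. Its lowest, median and highest values in CAST/EiJ were 0, 8.25 and 15.7 CPM, and 32 of the 37 other libraries lay above the highest. Both Ifit1 and Ifit3 had no count in the male hippocampus library titled low of CAST/EiJ, which held 4132518 counts, where 3 counts would be 0.748 CPM.
A/J was at 1.65, 21.2, 28.0, 37.7 and 47.0 CPM and DBA/2J at 18.1, 38.6, 48.9, 62.1 and 116 CPM. WSB/EiJ spread from 1.22 through 18.6 to 69.6 CPM, which is wider than CAST/EiJ in both directions from its median. The remaining strains ran from 10.9 through 28.2 to 56.4 CPM (129S1/SvImJ), from 23.1 through 52.1 to 140 CPM (C57BL/6J) and from 26.3 through 43.9 to 101 CPM (NOD/ShiLtJ). No step between neighbours in the order of strains exceeded the larger SD for Ifit1. In the test over strains its call held in 19 of 25 alternatives. It was lost without either CAST/EiJ library titled low, its female hippocampus library or its male hippocampus library titled high (adjusted p = 0.0539 to 0.0889). It was also lost on counts summed per set (adjusted p = 0.0627) and in male libraries alone (adjusted p = 0.334). In the contrast of CAST/EiJ it was lost in male libraries alone (-1.94, adjusted p = 0.155) and without the male hippocampus library titled high of CAST/EiJ (-2.12, adjusted p = 0.0520). Irf7 and Ifit3 passed in CAST/EiJ under all 25 alternatives tried.

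Among the other response genes, Ifitm3 in CAST/EiJ was low and even, from 36.1 through 43.6 to 58.5 CPM, and 26 of 37 other libraries lay above that range (log2 fold change -0.87 ± 0.30 SE, adjusted p = 0.179). Ifitm2, its partial copy, was at 43.7 ± 19.2 CPM in CAST/EiJ (SD, n = 6) and 19.8 ± 11.3 CPM in other strains (SD, n = 37), the opposite order. Bst2 ran from 0 to 13.9 CPM in CAST/EiJ and from 0 to 64.4 CPM elsewhere, and its 7 strain means lay between 6.71 and 26.7 CPM, with SDs of up to 27.3 CPM. Ifi27 was detected in every CAST/EiJ library, at 16.1 CPM or more and a median of 25.1 CPM. Its lowest strain was WSB/EiJ, where 5 of 6 libraries lay between 0 and 5.24 CPM and the female hippocampus library was at 38.3 CPM (log2 fold change -1.61 ± 0.66 SE, adjusted p = 0.211). So 3 of the 6 response members were low in CAST/EiJ past the test, and the other 3 were not. DESeq2 also passed Ifitm3 as lower in this contrast (adjusted p = 0.0291).

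The strain means of the receptor chains lay closer together. Ifnar1 averaged 208 ± 39.8 CPM in CAST/EiJ (SD, n = 6) and 318 ± 84.9 CPM in the other strains (SD, n = 37), with a log2 fold change of -0.60 ± 0.19 SE (adjusted p = 0.127), and its strain means ran from 208 to 344 CPM. DESeq2 passed it in this contrast, and in male libraries alone it passed the test over strains (adjusted p = 0.0208). Ifnar2, the second chain of the same receptor, averaged 121 ± 35.0 CPM in CAST/EiJ and 108 ± 36.5 CPM elsewhere, and its 7 strain means lay between 91.0 and 139 CPM. Ifngr1 averaged 36.2 ± 9.69 CPM in CAST/EiJ against 49.5 ± 34.0 CPM, with strain means from 36.2 to 70.8 CPM. For these 3 genes no step between neighbours in the order of strains exceeded the larger SD.

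CAST/EiJ was compared directly with WSB/EiJ, the other wild-derived strain, in the same fit; this contrast was added after the values had been seen. Ifit3 (log2 fold change -3.81 ± 0.60 SE, adjusted p = 1.02e-05) and Irf7 (-2.96 ± 0.53, adjusted p = 0.000142) were lower in CAST/EiJ, where 1.22% of all genes passed and 0.556% as lower. Of those averaging at least 10 CPM, 3.58% passed and 1.77% as lower. Ifit1 was at -1.66 ± 0.61 (adjusted p = 0.242). The receptor chains were at -0.40 ± 0.24 (Ifnar1), 0.37 ± 0.30 (Ifnar2) and -0.02 ± 0.48 (Ifngr1), with none past the test. The 2 wild-derived strains thus differed from each other in 2 of the genes in which CAST/EiJ differed from the mean of all other strains.

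Against this, the joint comparison of 12 wild-derived with 31 long-inbred libraries passed 1 of the 9 genes, Ifitm3. It was at 21.4, 48.7 and 85.9 CPM (lowest, median and highest) in wild-derived and at 40.0, 78.1 and 291 CPM in long-inbred strains, with overlapping groups and a log2 fold change of -0.87 ± 0.23 SE (adjusted p = 0.0369). In this comparison 0.749% of all genes passed, and 0.24% as lower. Origin is a property of the strain, so libraries of a strain are not independent replicates of it, and these p-values may be too small. On counts summed per strain 7 genes passed, where 218 had passed on libraries, and 0 of them were members. Of those averaging at least 10 CPM, 1.64% passed, and 0.622% as lower. Ifnar1 was at 241 ± 80.6 CPM (SD, n = 12) against 326 ± 80.8 CPM (SD, n = 31), or -0.44 ± 0.15 SE in log2 fold change, which did not pass (adjusted p = 0.239). Ifnar1 is one of the genes that the study itself singled out on these libraries, with DESeq2. Under DESeq2 3 of the 9 genes passed here as well, Ifitm3, Ifit1 and Ifnar1. Ifit1 was at -1.38 ± 0.41 SE (adjusted p = 0.105). All 9 fitted values were negative, from -1.38 to -0.01, beside a median of -0.38 over all genes and 0.03 over those of at least 10 CPM. The call for Ifitm3 held in 6 of 16 alternatives: on counts summed per set it stood at -0.95 ± 0.29 SE (adjusted p = 0.279), with sex and region as covariates it stood at -0.81 ± 0.22 SE (adjusted p = 0.0621), in cortex alone at -0.41 ± 0.29 SE and in hippocampus alone at -1.35 ± 0.33 SE (adjusted p = 0.0615). Without CAST/EiJ, Irf7 and Ifit3 turned from -0.67 to 0.17 and from -0.70 to 0.22, and without WSB/EiJ, 4 of the 9 genes passed (Ifit3, Irf7, Ifit1 and Ifnar1).

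**Figure D3:**
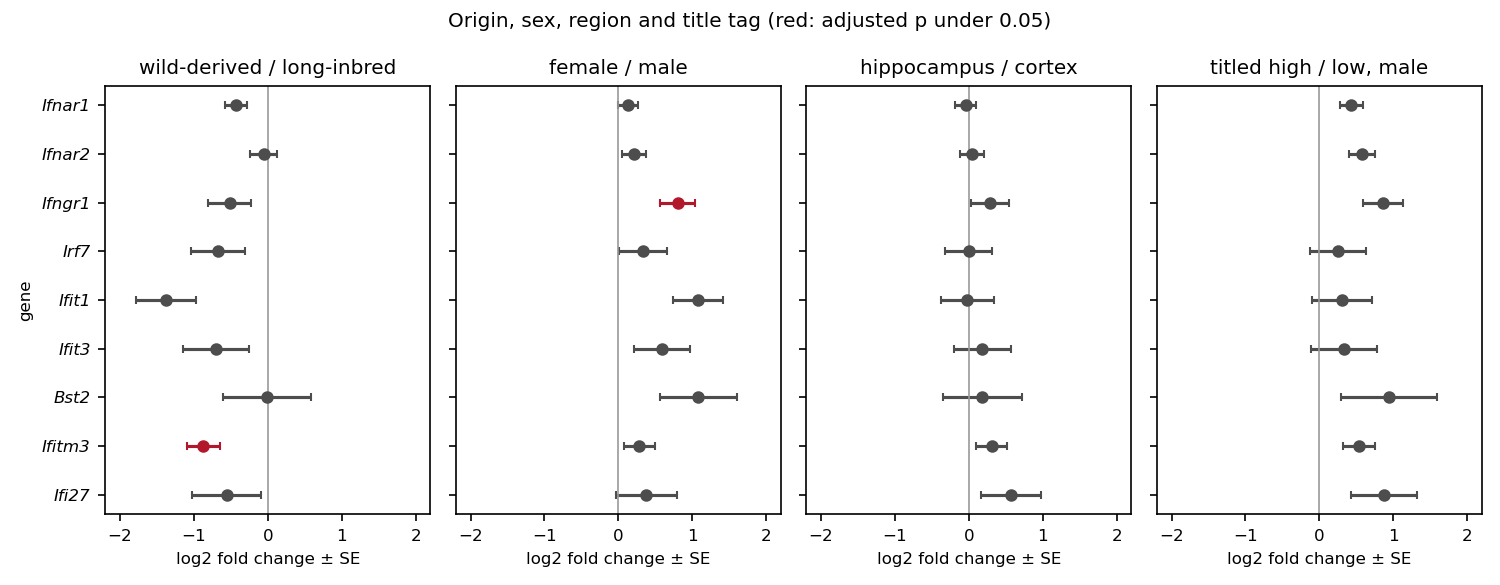
Fitted log2 fold change ± SE of the 9 genes (rows) for wild-derived against long-inbred strains, female against male, hippocampus against cortex, and male libraries titled high against low (panels from left to right); red marks an adjusted p under 0.05. Ifitm3 by origin and Ifngr1 by sex are the 2 red points, and values by region all lie between -0.04 and 0.57.

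Between the sexes, Ifngr1, the ligand-binding chain of the type II receptor, was higher in female libraries. Its lowest, median and highest values were 17.4, 56.0 and 170 CPM in 16 female and 11.9, 29.0 and 85.1 CPM in 27 male libraries, which overlapped, with a log2 fold change of 0.80 ± 0.24 SE (adjusted p = 0.0496). Of all genes, 2.85% passed and 2.56% as higher. Of those averaging at least 10 CPM, as Ifngr1 does, 8.79% passed, 705 of 8679 as higher. Ifit1 was at 56.3 ± 39.1 CPM in female (SD, n = 16) and 26.7 ± 17.7 CPM in male libraries (SD, n = 27), or 1.07 ± 0.34 SE in log2 fold change (adjusted p = 0.0654). All 9 fitted values were positive, beside a median of -0.12 over all genes and 0.17 over those of at least 10 CPM. With DESeq2's size factors that median was -0.24, a shift of -0.12, the split of calls went from 745 higher and 85 lower to 430 and 155, and Ifnar1 turned to -0.002. Relative to the median, Ifngr1 stood at 0.92 with TMM and 0.91 with DESeq2's size factors, where its adjusted p was 0.162.
Female libraries were deeper than male ones, with medians of 21242058 and 5257353 counts, and 6 of the 16 came from 129S1/SvImJ. Sex was thus partly mixed with depth and strain. Reads on rRNA-like genes made up 1.59% to 12.1% of female and a larger share, up to 29.3%, of every male library. With that share as a covariate Ifngr1 was at 0.53 ± 0.48 SE (adjusted p = 0.765), and among libraries titled high alone at 0.49 ± 0.28 SE (adjusted p = 0.411). Without the male hippocampus library titled low of WSB/EiJ its adjusted p was 0.0621, and on counts summed per set 0.0568.

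By region, none of the 9 genes differed between hippocampus and cortex. The log2 fold changes ran from -0.04 to 0.57 with adjusted p of 0.669 or more, none had an unadjusted p under 0.05, and DESeq2 passed none. Of all genes, 0.0755% passed here. Ifi27 had the largest value, 27.3 ± 17.7 CPM in hippocampus (SD, n = 22) against 18.4 ± 15.7 CPM in cortex (SD, n = 21), or 0.57 ± 0.41 SE in log2 fold change. Irf7 was nearly equal, at 38.1 ± 26.0 and 38.3 ± 27.3 CPM. Whether the difference by origin itself differed between regions or sexes was tested as an interaction, which none of the 9 genes passed. The share of all genes that passed was 0% for region and 0.0206% for sex. At an unadjusted p under 0.05 the interaction with region held 1 member (675 of all 29120 genes) and that with sex 2 (1146 of all).

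Within male mice, 14 libraries titled high were compared with 13 titled low. None of the 9 genes passed, where 1.06% of 27529 genes did, but all 9 fitted values were positive, 4 had an unadjusted p under 0.05 (2233 of all genes) and DESeq2 passed 2 (Ifnar2 and Ifngr1). The largest values were those of Bst2 (0.94 ± 0.65 SE) and Ifi27 (0.87 ± 0.45 SE). Ifngr1 was at 47.5 ± 23.1 CPM in libraries titled high (SD, n = 14) and 26.3 ± 9.17 CPM in those titled low (SD, n = 13), or 0.86 ± 0.28 SE in log2 fold change (adjusted p = 0.146). Ifnar2 was at 0.58 ± 0.18 SE (adjusted p = 0.125) and Ifnar1 at 0.43 ± 0.15 SE (adjusted p = 0.227). With strain and region as covariates, Ifnar2 (0.57 ± 0.15 SE, adjusted p = 0.0310) and Ifnar1 (0.38 ± 0.11 SE, adjusted p = 0.0443) passed. Irf7, Ifit1 and Ifit3 had fold changes of 0.25 to 0.34, within their SE of 0.38 to 0.45. Marker sums moved with the tag. Those of 20 endothelial markers had a median of 27689 CPM in libraries titled high and 22292 CPM in those titled low, and those of 10 pericyte markers 3905 and 6863 CPM. The 10 astrocyte markers summed to a median of 3229 CPM (1485 to 7292) in libraries titled high and 5222 CPM (3152 to 19605) in those titled low, 6 neuronal markers to 125 CPM (34.5 to 449) and 288 CPM (171 to 521), and 6 oligodendrocyte markers to 35.8 and 121 CPM. The part of these cells in the values of the 9 genes was not tested.

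The rest of the pathway was read from lists of 161 genes besides the members, of which 142 were tested. In the test over 7 strains 16 of them passed (11.3%, beside 2.68% of all genes and 6.68% of those averaging at least 10 CPM). These were 12 of 90 other response genes, 2 of 18 receptor chains and signalling genes and 2 of 18 sensors of RNA and DNA. None of 10 other interferon regulatory factors passed. The 6 with the smallest p were Oasl2, Xaf1, Rnf213, Ifi44, Trim12c and Ifi203. Oasl2, of the oligoadenylate synthetase family, averaged 98.4 ± 38.6 CPM in C57BL/6J (SD, n = 6) and 9.43 ± 3.44 CPM in CAST/EiJ (SD, n = 6). Rnf213, a large ubiquitin ligase, averaged 527 ± 159 CPM and 169 ± 29.3 CPM in the same strains. Xaf1, a partner of apoptosis inhibitors, had its highest mean in DBA/2J, at 132 ± 28.4 CPM (SD, n = 5), and its lowest in NOD/ShiLtJ, at 15.5 ± 6.24 CPM (SD, n = 6).

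In CAST/EiJ, 8 of 90 other response genes were lower and 1 higher, which is 8.89% lower beside 0.378% of all genes. Among the 52 that average at least 10 CPM it was 6, or 11.5%, beside 1.18% of all such genes. The list median was -0.30, beside -0.12 over all genes, and 55 of the 90 had a negative fold change. At an unadjusted p under 0.05 there were 27 of the 90, beside 3057 of all 29120. Oasl2 fell by 2.71 on the log2 scale (adjusted p = 1.02e-06) and Sp100, a nuclear body protein, by 1.62 (adjusted p = 1.46e-05). Ifi44, another response gene, was at 0 in 5 of 6 CAST/EiJ libraries and had 4 counts in the other, while it averaged 16.9 ± 15.1 CPM elsewhere (SD, n = 37; adjusted p = 1.49e-05). The others called lower, named to complete the count, were Rnf213, Ifi203, Trim30a, Oas1a and Oas2, of which Ifi203, Trim30a and the Oas genes belong to families of near copies. Xdh, xanthine dehydrogenase, was the one called higher (0.67 ± 0.18 SE, adjusted p = 0.0267). Of the 18 receptor chains and signalling genes, Ifnlr1, the chain of the type III receptor, was detected in all 6 CAST/EiJ libraries at 11.9 ± 2.57 CPM (SD, n = 6) and had at most 3 counts in any other, which makes it at least 20.9-fold higher against a floor of 3 counts per library (adjusted p = 8.28e-07). Ifnlr1 reached the filter through CAST/EiJ alone, so this call is not independent of the filter. None of the 10 other regulatory factors and none of the 18 sensors passed in CAST/EiJ.

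**Figure D4:**
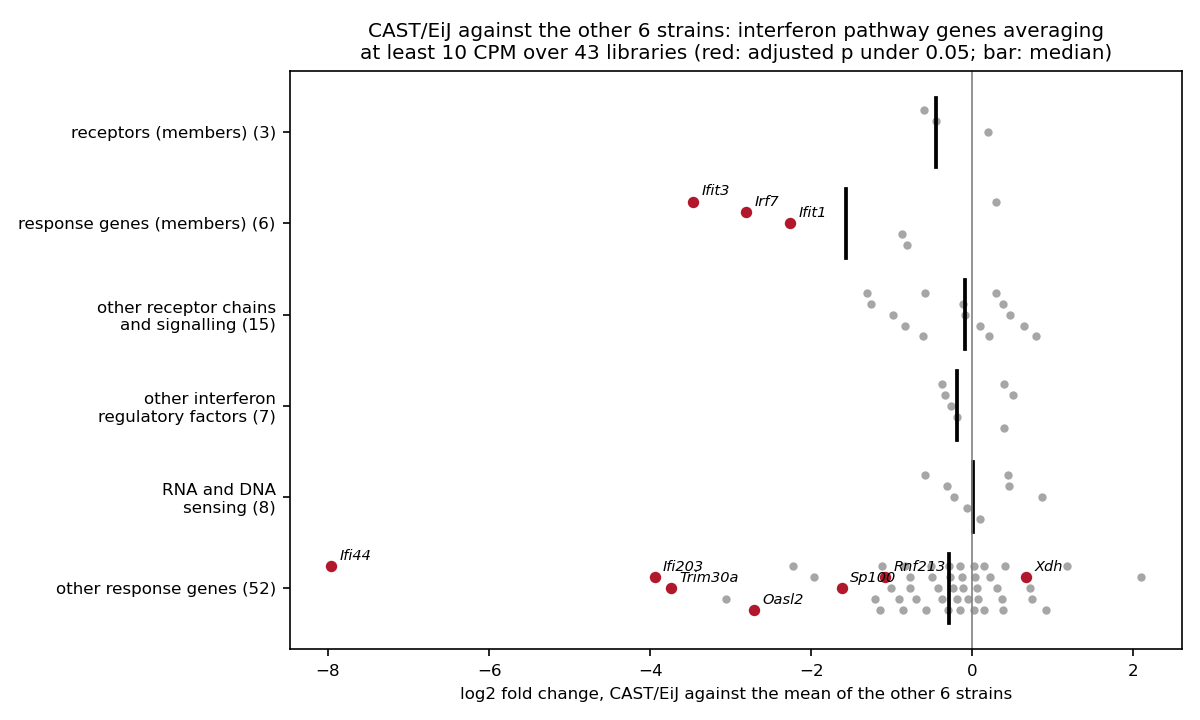
Log2 fold change in CAST/EiJ against the mean of the other 6 strains for pathway genes averaging at least 10 CPM over 43 libraries, by list (number of genes in brackets); red points have an adjusted p under 0.05 and black bars are list medians. Called genes are found among response genes, 3 members and 7 of 52 others, and in none of the other lists plotted; the position of Ifi44, at 0 in most CAST/EiJ libraries, depends on the fit's prior count.

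Immune cells that express these genes were looked for in the same libraries. Microglial markers summed to 14.7 to 57.6 CPM in CAST/EiJ and 0.555 to 163 CPM in the other strains, and macrophage markers to 1.74 to 9.13 CPM (median 5.73) and 0 to 26.7 CPM (median 1.23). None of these 15 markers, and none of 4 of lymphocytes and neutrophils that could be tested, passed in CAST/EiJ; Aif1 was at 0 in all 6 of its libraries. All 20 endothelial markers stayed short of the threshold as well, with a median fold change of 0.15. Of the other lists, 2 of 10 pericyte, 1 of 10 smooth muscle and 1 of 6 oligodendrocyte markers passed. Pericyte markers summed to 2160 to 3108 CPM in CAST/EiJ against 2533 to 9759 CPM elsewhere, and their part in the values of Irf7, Ifit1 and Ifit3 was not tested.

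In C57BL/6J, 6 of 90 other response genes were higher and none lower, which is 6.67% higher beside 0.337% of all genes. CAST/EiJ is part of the mean that C57BL/6J was set against, so these values are not independent of those of CAST/EiJ. Rnf213 was at 0.83 ± 0.17 SE (adjusted p = 0.00372), Slfn2, a Schlafen family gene, at 3.67 ± 0.78 SE (adjusted p = 0.00519) and Oas2 at 4.23 ± 0.91 SE (adjusted p = 0.00614). Slfn2 and Oas2 average under 10 CPM over all libraries. In the other strains 1 to 5 of the 142 list genes passed. They were 3.52% in WSB/EiJ, beside 2.41% of all genes and 5.24% of those averaging at least 10 CPM. In 129S1/SvImJ they were 2.82%, beside 1.46% and 2.83%. The share was 2.11% in NOD/ShiLtJ (0.185% of all genes), and 0.704% in A/J (0.254%) and in DBA/2J (0.192%). Xaf1 was higher in DBA/2J (2.00 ± 0.29 SE, adjusted p = 6.95e-06) and lower in NOD/ShiLtJ (-1.61 ± 0.37 SE, adjusted p = 0.0264). Ifi203 was higher in A/J (2.05 ± 0.45 SE, adjusted p = 0.0176). In 129S1/SvImJ, Nlrc5, a regulator of MHC class I genes, had no count in 5 of 9 libraries, and Lgals3bp was lower (-1.13 ± 0.30 SE, adjusted p = 0.0342). Nlrc5 also had no count in 3 C57BL/6J, 3 CAST/EiJ, 2 WSB/EiJ and 1 NOD/ShiLtJ libraries, with 6 libraries per strain. In WSB/EiJ, Ifi44 was higher (2.29 ± 0.62 SE, adjusted p = 0.0270), Psmb8 of the immunoproteasome was lower (-2.06 ± 0.61 SE, adjusted p = 0.0494) and Phf11d was at 0 in all 6 libraries. Phf11d was also at 0 in 4 libraries of 129S1/SvImJ, 2 of A/J, 2 of C57BL/6J, 1 of DBA/2J and 1 of NOD/ShiLtJ. Nlrc5 and Phf11d both average under 10 CPM over all libraries.

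By origin, 7 of the 142 list genes passed (4.93%, beside 0.749% of all genes), 4 higher and 3 lower. Libraries, not strains, were again the units of this test, so its p-values may be too small. Higher in wild-derived strains were Jak1, the kinase shared by the interferon receptors (197 ± 52.8 CPM, n = 12, against 122 ± 32.5 CPM, n = 31, SD; adjusted p = 0.00619), and Xdh (adjusted p = 0.00886), beside Ifnlr1 through CAST/EiJ. The remaining gene called higher was Mx2, a response gene named here after its values were seen. It averaged 30.6 ± 29.9 CPM (SD, n = 12) against 6.88 ± 6.59 CPM (SD, n = 31; adjusted p = 0.0238). In CAST/EiJ against the mean of the other 6 strains, Mx2 was also higher but did not pass (adjusted p = 0.0894). Lower were Slfn2, Oas2 and Trim12c (adjusted p = 0.00319, 0.00394 and 0.0111). For Slfn2 and Trim12c low levels were not confined to wild-derived strains. Trim12c had its lowest mean in NOD/ShiLtJ, at 1.73 ± 1.98 CPM (SD, n = 6), and Slfn2 averaged 0.342 ± 0.755 CPM in DBA/2J (SD, n = 5). Oas2 averaged 0.00661 CPM in CAST/EiJ and 0.173 CPM in WSB/EiJ, and at least 2.80 CPM in each other strain. Between the sexes 2 of the 142 passed (1.41%), a smaller share than the 2.85% of all genes. Psme1, a proteasome activator induced by interferon gamma, was higher in female (1.47 ± 0.22 SE, adjusted p = 2.00e-06) and Jak2 lower (-0.52 ± 0.15 SE, adjusted p = 0.0440). By tag 2 of 140 passed (1.43%, beside 1.06% of all genes). Lgals9 (0.91 ± 0.21 SE, adjusted p = 0.0130) and Samd9l (0.95 ± 0.23 SE, adjusted p = 0.0168) were higher in male libraries titled high. No gene of the lists passed by region. Jak1 overlaps Raver2, and Psme1 overlaps Emc9, each on the other strand, and Ifi203 overlaps Mndal on its own strand.

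Over the 43 libraries the 9 genes fell into loose groups, given as Spearman's correlation of log2(CPM + 1) across libraries that share strains, sexes and regions and differ in depth. Irf7 and Ifit3 had the highest correlation, 0.80, followed by Ifit1 with Ifit3 at 0.64 and with Irf7 at 0.61. Without CAST/EiJ (37 libraries) these were 0.70, 0.49 and 0.44. Ifi27, Bst2 and Ifngr1 formed another set, with correlations from 0.61 to 0.64, and from 0.61 to 0.67 without CAST/EiJ. Ifnar1 was closest to Ifitm3 at 0.62, but without CAST/EiJ to Ifnar2 at 0.61, with Ifi27 at 0.58 and Ifitm3 at 0.53.

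**Figure D5:**
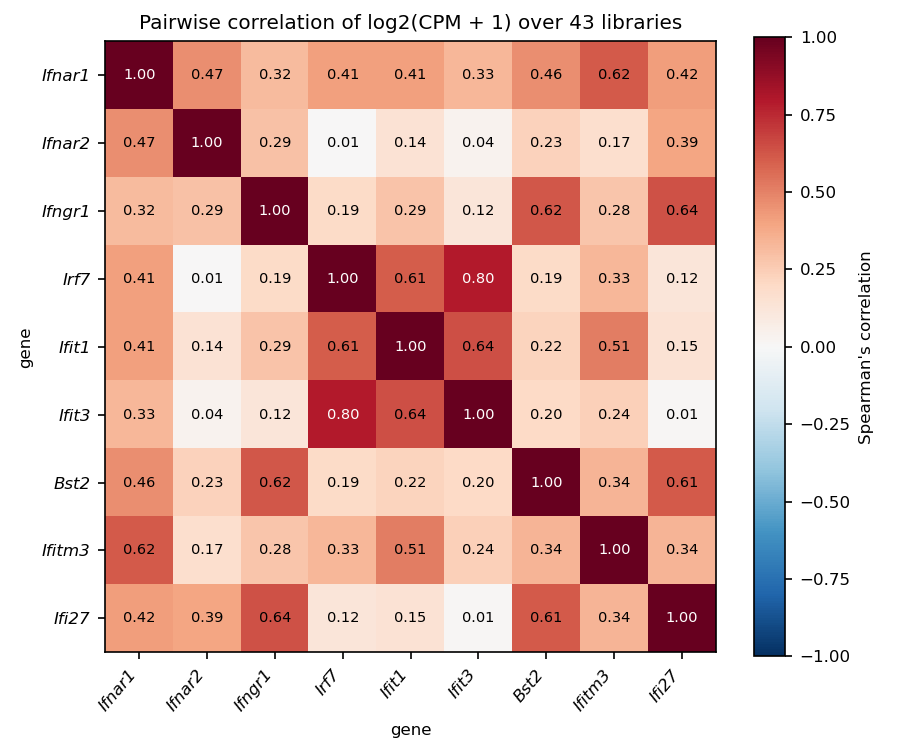
Spearman's correlation between each pair of the 9 genes over 43 libraries, on a colour scale from -1 to 1. Irf7, Ifit1 and Ifit3 share values of 0.61 to 0.80, and Ifngr1, Bst2 and Ifi27 values of 0.61 to 0.64.

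The genes most like each member were sought among 11634 genes with a median of at least 1 CPM, by Spearman's correlation over 43 libraries. For Irf7 they were Ifit3 (0.80), Iigp1 (0.78) and Ifi44 (0.67), and for Ifit3 they were Irf7, Iigp1 (0.71) and Rnf213 (0.68). For Ifit1 they were H2-D1 (0.64), Ifit3 and Isg15 (0.61). The genes most like the other members were not response genes of the lists. Ifnar1 was closest to Polk (0.79), Ifnar2 to Efhc2 (0.66), Ifngr1 to Tm4sf1 (0.72), Bst2 to Fgd5 (0.68), Ifitm3 to Slc16a4 (0.75) and Ifi27 to Polrmt (0.68).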

How the data were processed

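Total RNA of sorted EC was depleted of rRNA and made into stranded libraries (43). The authors aligned single-end reads to mm10 with HISAT2 2.1.0, handled them with SAMtools 1.9 and counted them per gene with featureCounts of Subread 1.4.4; replicates were not pooled. The deposited table holds raw, unscaled counts of 54532 genes, of which 54495 matched GENCODE M21 by Ensembl identifier. mm10 represents C57BL/6J, and how far reads of other strains were lost in alignment was not tested.

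Library sizes were adjusted with TMM factors (edgeR 4.0.16 under R 4.3.3). Genes that reached 0.5 CPM in some library, 29120 of them, entered the tests (27529 for the tag). edgeR's quasi-likelihood test was two-sided, with bias-adjusted deviances, trended dispersion, no covariates and Benjamini-Hochberg adjustment at 0.05; SE is the fold change over the root of F. Strain was tested over 7 groups and as each strain against the mean of the other 6. The members, lists and settings were chosen with earlier results of these data known. DESeq2 1.42.0, other scalings, filters, covariates and subsets were alternatives. Covariate fits dropped genes with a fitted count over 5 times their highest observed one. The code was tested on simulated data with 200 changed genes, all averaging at least 10 CPM. Of 4-fold changes 39% passed the test over strains and 61% the contrast of CAST/EiJ, and of 2-fold changes 4% and 14%. A gene that did not pass may therefore differ 2-fold. Of the calls 54.3% and 54.8% were false, but 0% and 3.85% of those on genes averaging at least 10 CPM. Below that level no gene was changed, so every call there was false by design and the shares cannot be compared. Simulated libraries were drawn independently, without shared mice, so false calls may be more frequent in the real data. In a run with no changed gene 10 and 41 genes passed, 0 and 3 of them averaging at least 10 CPM. Calls on genes averaging under 10 CPM, such as Ifna2, Ifnlr1, Oas1a, Oas2 and Slfn2, are thus uncertain. Genes named besides the 9 were at most the 3 with the smallest p in each direction per comparison (6 in the strain test), or are said to be named after their values were seen. No 2 libraries held the same counts. Total counts set the precision, and a floor of 3 counts covers counting error only. Copies were sought with BLAST 2.17.0. No label names the mouse; libraries whose titles differ only in region were tried as a block or summed.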

Additional observations from a re-analysis of the deposited data

Results flagged for a closer look

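In 6 of 63 combinations of gene and strain, 1 library stood apart from the others of its strain by the size of its gap (Dixon's test on log2(CPM + 1)); chance flags about 1 in 20. Of these, 3 concern receptors: Ifnar2 was at 58.7 CPM in the male hippocampus library titled low of DBA/2J, where the other 4 lay between 98.6 and 113 CPM. Ifngr1 was at 11.9 CPM in the male cortex library titled low of A/J, below 46.8 to 79.7 CPM in the others, and at 114 CPM in the female hippocampus library of WSB/EiJ, above 12.9 to 26.7 CPM. The other 3 are response genes. Ifit1 was at 1.65 CPM in the male hippocampus library titled low of A/J, below 21.2 to 47.0 CPM. Bst2 was at 0 CPM in the male cortex library titled low of C57BL/6J, where the others held 13.9 to 50.2 CPM, and at 0 CPM in that of CAST/EiJ, where they held 4.91 to 13.9 CPM.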

How the results depend on the processing

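With the 19 sets of libraries alike but for the region as a replicate block, region gave 52 genes (8 without the block in the same libraries), no member, and -0.032 for Ifitm3, whose sign turned. Counts summed per set gave 319 genes for strain, 74 for origin, 493 for sex and 61 for the tag, with 0 members by origin and by sex; all were chosen after seeing the data. Genes called overall depended on the test. With DESeq2 they were 1335 for strain (781 in edgeR), 395 for origin (218), 61 for region (22) and 635 for the tag (293), and with edgeR's default deviances 13526, 6712, 8023 and 8327, and 10473 for sex (830). Covariates gave 55 for region (strain and sex) and 560 for the tag (strain and region), and the rRNA-like share 65 for sex. Subsets gave 474 for strain (male), 448 for sex (titled high), and for origin 40 (cortex), 68 (hippocampus), 123 (male), 44 (female) and 7 (counts summed per strain).

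Of the 9 members, DESeq2 called 5 by strain, 5 in CAST/EiJ, 3 by origin, 2 by tag and 0 by sex. Default deviances called 3 by origin, 2 by sex, 3 by tag and 2 in C57BL/6J, where male libraries alone left 0. By origin, 0 were called in cortex, hippocampus or female libraries alone, with summed counts, with either set of covariates and without CAST/EiJ, and 4 without WSB/EiJ. By sex, 0 were called with DESeq2's size factors, without a filter, among libraries titled high and with the rRNA-like share, and 2 with strain and region as covariates, which also gave 2 by tag. Without the male hippocampus library titled low of WSB/EiJ (left out after seeing the data, as was the choice of deviances and the CAST/EiJ leave-outs), 2 were called by origin and 0 by sex.

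Signs turned by origin for Irf7 (0.17) and Ifit3 (0.22) without CAST/EiJ and for Ifi27 (0.0084) without WSB/EiJ. By sex they turned for Ifnar2 (-0.037) among libraries titled high and for Ifitm3 (-0.058) and Bst2 (-0.47) with the rRNA-like share; Ifnar1, at 0.13, lay between -0.06 and 0.13 over all alternatives for sex. Causes were not tested. Mean levels per strain moved by less than 1 SD without the TMM factor in 63 of 63 cases. At the depth of the shallowest library, 3 counts are 1.84 CPM.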

Other observations

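Interferon genes themselves were nearly silent: of 21 listed, 6 passed the filter on low counts. Ifna2, named here after its values were seen, was called higher in C57BL/6J, at 3.09 ± 5.61 CPM (SD, n = 6), and was at 0 in all 37 libraries of the other strains (adjusted p = 0.0496). It reached the filter through C57BL/6J alone, so its call is not independent of the filter. As it averaged 0.431 CPM over all libraries, the call is uncertain. Irf4, a lymphoid and myeloid regulatory factor, was called higher in WSB/EiJ on the strength of 1 library with 95 counts, while the other 5 had none. Irf2bp2, a corepressor that binds IRF2, was called higher in WSB/EiJ, at 231 ± 105 CPM (SD, n = 6) against 127 ± 43.8 CPM in other strains (SD, n = 37).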
